A study of Mus musculus with 18 samples.

Results

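The striatum was profiled for 8 genes of the pathway that carries calcium and diacylglycerol signals to the small GTPases Ras and Rap1. They are the CalDAG-GEF genes Rasgrp1, Rasgrp2 and Rasgrp3, the Ras-GRF genes Rasgrf1 and Rasgrf2, the GTPase genes Rap1a and Rap1b, and the Rap1 GTPase-activating protein gene Rap1gap. They were taken by gene name from a table of 29942 gene names, in which each of the 8 had 1 row. All 8 passed the filter on low values, a mean of at least 1 FPKM (FPKM is the fragment count scaled to transcript length and to library size), which 13975 genes passed and which did not use treatment. In all, 18 sibling mice of strain 129Sv/Jae S4 were studied, with 1 polyA RNA library from the striatum of each, taken on both sides above the anterior commissure. The amphetamine groups received D-amphetamine by intraperitoneal injection, 7 mg/kg per day in 0.9% saline, and the saline groups received 0.9% saline, with 3 mice per treatment on each of days 1, 7 and 21. The series asks which striatal transcripts change with drug-induced repetitive behaviors. The labels give no genotype beyond the strain, no age, no sex beyond that mice were matched for it, and no time between the last injection and dissection.

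Ras and Rap1 are molecular switches that are active when bound to GTP. Guanine nucleotide exchange factors load them with GTP, and GTPase-activating proteins such as Rap1GAP return them to the GDP-bound state. CalDAG-GEFs are exchange factors controlled by diacylglycerol or calcium: CalDAG-GEFI (Rasgrp2) acts mainly on Rap1 and CalDAG-GEFII (Rasgrp1) mainly on Ras, and both are known for strong expression in striatal projection neurons. Ras-GRFs are calmodulin-binding exchange factors of neurons, and Ras-GRF1 links glutamate and dopamine receptor signals to ERK in the striatum.

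No total read count was known, so the precision behind each FPKM value could be judged only from the spread between animals. Low FPKM values fall on steps that give depth relative to the deepest library (set to 1), and the shallowest library had 0.652. The estimate used 30 genes and took 1 step as 1 read, and 90.1% of values lay close to 1 step. These genes were chosen for a narrow range of values above 0, so that share does not test whether 1 step is 1 read. On day 1 relative depth was 0.768 to 0.851 in amphetamine mice and 0.769 to 0.979 in saline mice. On day 7 it was 0.693 to 0.944 and 0.809 to 1, and on day 21 0.652 to 0.832 and 0.783 to 0.923. As a covariate, depth is therefore not independent of treatment. FPKM summed to between 533020 and 682270 per library, and log2 values correlated at 0.92 to 0.939 for mice of the same group and at 0.911 to 0.942 for mice of different groups. The labelled tissue held its markers: the 14 striatal projection neuron markers were all tested and summed to between 4423 and 5410 FPKM, with Ppp1r1b, the DARPP-32 gene, at 877 to 1333 FPKM. Of the cortical markers, the glutamate transporter gene Slc17a7 ran from 1.29 to 48.4 FPKM. In bulk tissue, fewer cells of a type and less RNA per cell cannot be told apart.

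The mouse Rap1a and Rap1b coding sequences are shown because these near-identical proteins are encoded by genes whose reads could be confused. The first 90 bases from the start codon are given from the GENCODE M21 transcripts (GRCm38), with capitals at the 13 bases that differ between them.
Rap1a: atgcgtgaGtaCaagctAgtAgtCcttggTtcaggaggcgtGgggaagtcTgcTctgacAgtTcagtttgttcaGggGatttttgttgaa
Rap1b: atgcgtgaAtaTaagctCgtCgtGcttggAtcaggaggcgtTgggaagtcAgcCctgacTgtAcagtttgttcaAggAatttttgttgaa
Over the 552 coding bases the genes were 81.7% identical, with 101 differing bases and a longest identical run of 20 bases. None of the 2372 windows of 36 bases in the Rap1a transcript occurred in the Rap1b transcript (0 windows), so exact reads of that length could be told apart.

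Promoter sequence is shown for the genes that held a match to a short element given below, and for Rasgrp1 and Rasgrp2, which held none. It is given as the 100 bases before the RefSeq start on GRCm38.p6, read along the gene's strand. The deposited values were made on mm9, so these coordinates belong to the reference and not to the files. Short elements were searched on both strands from 250 bases before to 50 bases after the start: TGACGTCA, the full cyclic AMP response element; TGACGT, its first 6 letters; CACGTG, an E-box; and TGAGTCA, the AP-1 element. Capitals mark the matches. Rap1b, chr10:117845975-117846074 on the minus strand, held the full element, starting at base -42.
Rap1b: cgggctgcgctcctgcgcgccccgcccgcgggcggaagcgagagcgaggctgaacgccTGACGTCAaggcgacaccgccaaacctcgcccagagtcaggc
Rasgrf2, chr13:92131829-92131928 on the minus strand, and Rap1gap, chr4:137664626-137664725 on the plus strand, each held an E-box that overlaps TGACGT.
Rasgrf2: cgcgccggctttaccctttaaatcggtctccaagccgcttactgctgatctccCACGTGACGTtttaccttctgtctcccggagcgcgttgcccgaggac
Rap1gap: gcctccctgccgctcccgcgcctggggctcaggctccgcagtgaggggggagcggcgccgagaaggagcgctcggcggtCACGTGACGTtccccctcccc
Rasgrp1, chr2:117342878-117342977 on the minus strand, and Rasgrp2, chr19:6399775-6399874 on the plus strand, held none of the searched letters.
Rasgrp1: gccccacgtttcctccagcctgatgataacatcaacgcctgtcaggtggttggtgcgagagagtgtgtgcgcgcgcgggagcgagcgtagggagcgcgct
Rasgrp2: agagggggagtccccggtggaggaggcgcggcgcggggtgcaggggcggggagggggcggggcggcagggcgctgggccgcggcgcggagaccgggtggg
Among all 32851 promoter windows of that length, 1.79% held TGACGTCA, 7.51% TGACGT, 7.15% CACGTG and 5.2% TGAGTCA. Counted by gene, with a match in any window of the gene, the shares of 27025 genes were 2.03%, 8.37%, 8.09% and 5.95%. Windows were found for 7 of the 8 genes, 15 windows in all. Rap1gap had 7 of these, of which the first 2, which overlap each other, held the match. The windows of Rasgrp3 and Rasgrf1 held none of the searched letters and are not shown.

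Transcripts of the exchange factors Rasgrp2, Rasgrp1 and Rasgrf1 and of Rap1gap stood above those of the GTPases Rap1a and Rap1b in every library, and those of Rasgrf2 and Rasgrp3 stood below them. On the length-scaled FPKM level, Rasgrp2 was highest with a mean of 240.1 FPKM over 18 libraries, the 226th highest level of 13975 tested genes. Rasgrp1 followed with a mean of 139.0 FPKM, Rap1gap with 123 FPKM and Rasgrf1 with 60.8 FPKM. Rap1b averaged 23.5 FPKM, Rap1a 17.8 FPKM, Rasgrf2 4.66 FPKM and Rasgrp3 3.20 FPKM. The order held in all 18 libraries for every pair of neighbours except 2: Rasgrp1 was above Rap1gap in 14 of 18, and Rasgrf2 was above Rasgrp3 in 16 of 18, and the ranges of these pairs overlapped. The Rasgrp2 level was 1.73 times that of Rasgrp1 at the median, with a range of 1.42 to 2.02 over libraries. The Rap1b level was 1.32 times that of Rap1a at the median, with a range of 1.18 to 1.55. Among the 96 tested genes made up of these 8 and 88 others of the pathway, Rasgrp2 ranked 5th, Rasgrp1 10th and Rap1gap 11th.

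**Figure D1:**
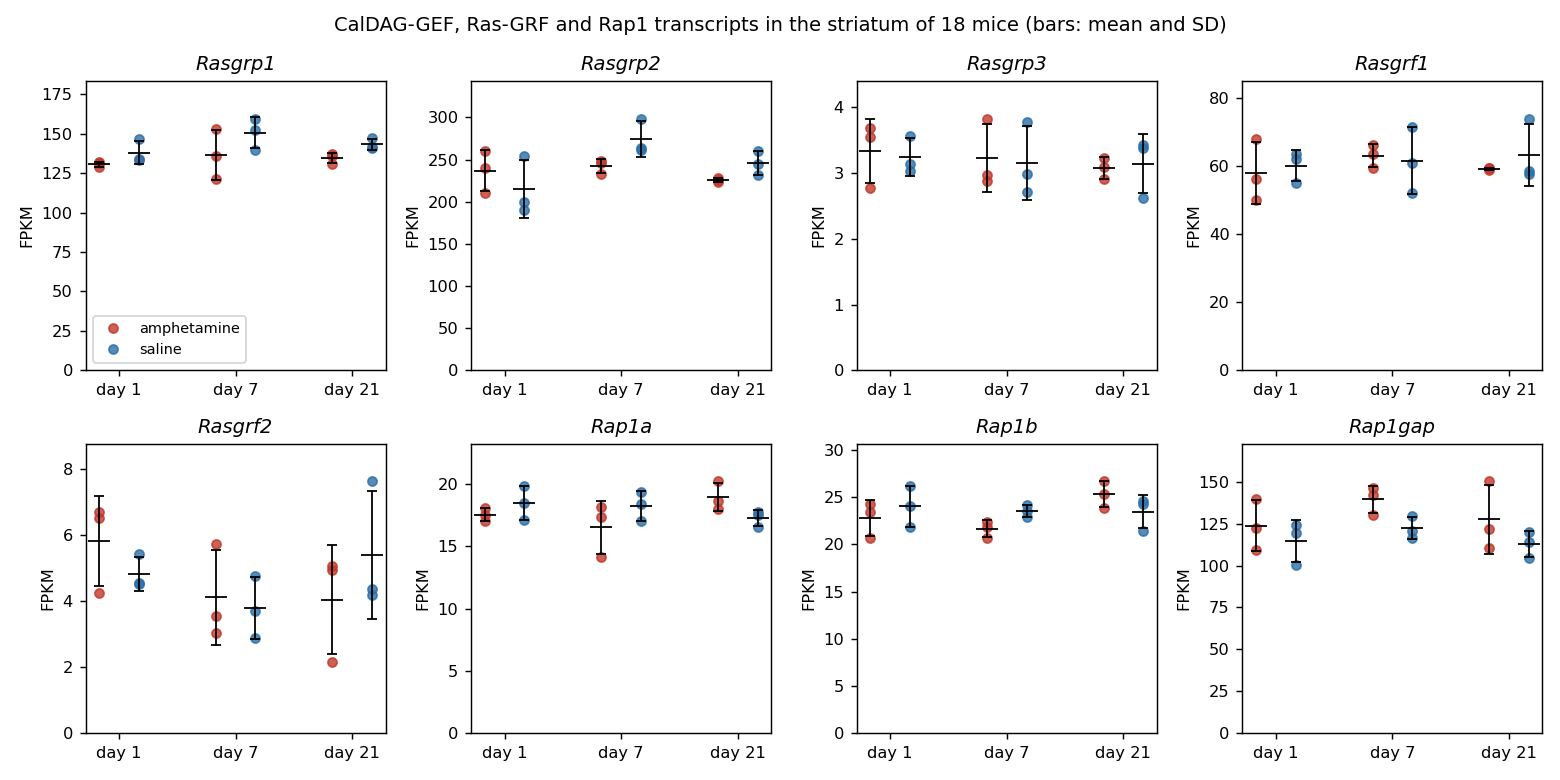
FPKM of the 8 genes in each mouse, by day, with amphetamine left of saline; points are mice, horizontal bars are means and error bars are SD (n = 3 per group), and every vertical axis starts at 0. Rasgrp1 lay lower with amphetamine on days 1 and 21 without overlap, Rap1gap lay higher on day 7 without overlap, and Rasgrf2 was the most spread out.

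Amphetamine and saline mice were compared on each day and over the mean of the days with limma, which gives each gene a log2 difference of FPKM + 1, amphetamine minus saline. None of the 8 genes passed an adjusted p of 0.05 in any of these comparisons (0 of 8 each time). Of all tested genes, 0.00716% passed on day 1, 0.0215% on day 7, 0% on day 21 and 0.122% over the mean of the days. At an unadjusted p of 0.05, the genes that passed were 0 of 8 on day 1 against 7.25% of tested genes, 0 of 8 on day 7 against 4.92%, and 0 of 8 on day 21 against 5.5%. Over the mean of the days 2 of the 8 passed that unadjusted threshold, against 5.36% of tested genes. These were Rap1gap, with higher values (3.63% of tested genes passed in that direction), and Rasgrp1, with lower values (1.73%). The median log2 difference over the 8 genes was -0.02 (day 1), -0.04 (day 7) and -0.05 (day 21), beside 0.05, 0.004 and -0.02 over all tested genes.

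Rasgrp1, which encodes the diacylglycerol-activated Ras exchange factor CalDAG-GEFII, had a lower mean with amphetamine on each day. On day 1 it had 131.3, 131.8 and 128.7 FPKM in amphetamine mice, against 134.3, 146.5 and 133.5 FPKM in saline mice. All 3 amphetamine mice lay below all 3 saline mice on that day. On day 7 it had 135.7, 121.2 and 153.0 FPKM in amphetamine mice, against 159.6, 152.6 and 140.0 FPKM in saline mice. Here 2 amphetamine mice lay below the lowest saline mouse and the groups overlapped. On day 21 it had 130.8, 135.7 and 137.0 FPKM in amphetamine mice, against 141.7, 147.2 and 141.0 FPKM in saline mice, and the groups did not overlap. The log2 differences were -0.08, -0.14 and -0.09 on days 1, 7 and 21. Over the mean of the days the difference was -0.10 ± 0.04 (SE; 95% interval -0.19 to -0.01), with a limma unadjusted p of 0.026 and an adjusted p of 0.865. It was the only one of the 8 whose difference was below 0 on all 3 days, which held for 8.04% of tested genes. With relative depth as a covariate the difference over the mean of the days was -0.06 (limma unadjusted p = 0.164), and with the cortical marker mean it was -0.09 (limma unadjusted p = 0.0713). With the striatal projection neuron marker mean, added after the data were seen, it was -0.10 (limma unadjusted p = 0.0132, adjusted p = 0.664). Septal and pallidal markers, with which Rasgrp1 ran in the opposite direction between animals, summed to 268 to 281 FPKM in amphetamine mice on day 7, against 208 to 257 FPKM in saline mice. Their sums were 257 to 307 FPKM in amphetamine mice and 244 to 284 FPKM in saline mice on day 1, and 294 to 316 FPKM in amphetamine mice and 267 to 316 FPKM in saline mice on day 21. Most of each sum was the transcript of 1 gene, Sst, which averaged 237.7 FPKM over the 18 libraries. The list also holds Pvalb, Lhx6 and Nkx2-1, which like Sst are not confined to septum and pallidum. It therefore does not mark septal or pallidal tissue alone. The day 7 log2 difference of Sst was 0.29 (limma unadjusted p = 0.00925, adjusted p = 0.822). The part of these markers in the Rasgrp1 difference was not tested.

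Rasgrp2, the gene of the calcium-regulated Rap1 exchange factor CalDAG-GEFI, was the most abundant of the set and did not keep 1 direction over days. On day 1 it had 210.6, 240.5 and 259.9 FPKM in amphetamine mice, against 190.6, 254.7 and 200.2 FPKM in saline mice, and the groups overlapped. The saline mouse with 190.6 FPKM, replicate 1, also had the lowest sum of striatal projection neuron markers of all 18 libraries, 4423 FPKM. On day 7 Rasgrp2 had 247.8, 233.0 and 245.6 FPKM in amphetamine mice, against 298.4, 261.3 and 263.3 FPKM in saline mice. On day 21 it had 225.4, 228.4 and 224.0 FPKM in amphetamine mice, against 232.1, 260.6 and 245.0 FPKM in saline mice. Amphetamine mice lay below saline mice without overlap on days 7 and 21. The log2 differences were 0.15, -0.18 and -0.12 on days 1, 7 and 21, and -0.05 ± 0.06 over their mean (SE; limma adjusted p = 0.999). Leaving out 1 library moved the day 1 difference to between 0.06 (without saline replicate 1) and 0.27 (without saline replicate 2), and that over the mean to between -0.08 and -0.008, without the same 2 mice. Among the saline mice its means were 215.1, 274.3 and 245.9 FPKM on days 1, 7 and 21, with a limma unadjusted p for day of 0.00999 and an adjusted p of 0.787.

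The ratio of Rasgrp1 to Rasgrp2, 1 mainly Ras-directed and 1 mainly Rap-directed exchange factor transcript, was described in each library, with no test. Other exchange factors are not part of this ratio. It averaged 0.556 ± 0.065 in amphetamine mice and 0.649 ± 0.067 in saline mice on day 1 (SD, n = 3 each). It averaged 0.564 ± 0.053 in amphetamine mice and 0.550 ± 0.029 in saline mice on day 7 (SD, n = 3 each). It averaged 0.595 ± 0.016 in amphetamine mice and 0.584 ± 0.024 in saline mice on day 21 (SD, n = 3 each). The day 1 means lay apart by more than either SD, and the means of days 7 and 21 lay apart by less.

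Rasgrp3, which encodes a further diacylglycerol-regulated exchange factor for Ras and Rap1, was the least abundant of the set, between 2.63 and 3.83 FPKM. On day 1 it had 2.78, 3.56 and 3.68 FPKM in amphetamine mice, against 3.03, 3.14 and 3.57 FPKM in saline mice. On day 7 it had 2.97, 3.83 and 2.88 FPKM in amphetamine mice, against 2.71, 3.78 and 2.98 FPKM in saline mice. On day 21 it had 3.24, 3.09 and 2.91 FPKM in amphetamine mice, against 2.63, 3.38 and 3.42 FPKM in saline mice. The groups overlapped on all 3 days. The difference over the mean of the days was 0.01 ± 0.07 (SE; 95% interval -0.14 to 0.16; limma adjusted p = 0.999), and its sign turned with the scaling on day 1, to -0.02 under median-of-ratios scaling. Quantile normalization turned its sign on each day and over the mean.

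Rasgrf1, the gene of the neuronal calcium- and calmodulin-dependent exchange factor Ras-GRF1, had 67.8, 56.0 and 49.998 FPKM in amphetamine mice on day 1, against 61.9, 54.8 and 63.5 FPKM in saline mice. On day 7 it had 59.4, 63.4 and 66.0 FPKM in amphetamine mice, against 60.9, 51.9 and 71.5 FPKM in saline mice. On day 21 it had 59.4, 58.9 and 59.2 FPKM in amphetamine mice, against 73.8, 57.6 and 58.4 FPKM in saline mice. The groups overlapped on every day, and the difference over the mean of the days was -0.03 ± 0.07 (SE; 95% interval -0.19 to 0.12; limma adjusted p = 0.999). Rasgrf2, which encodes Ras-GRF2, was more variable: 6.71, 6.51 and 4.24 FPKM in amphetamine mice on day 1, against 4.54, 5.42 and 4.51 FPKM in saline mice. On day 7 Rasgrf2 had 3.55, 5.74 and 3.05 FPKM in amphetamine mice, against 2.89, 3.70 and 4.77 FPKM in saline mice. On day 21 Rasgrf2 had 5.06, 4.93 and 2.14 FPKM in amphetamine mice, against 7.63, 4.37 and 4.20 FPKM in saline mice. Its groups overlapped on every day, and its coefficient of variation over the 18 libraries was 29.9%, above that of 90.8% of tested genes, whose median was 11.3%. The log2 differences of Rasgrf2 were 0.21, 0.08 and -0.36 on days 1, 7 and 21, and -0.03 ± 0.16 over their mean (SE; 95% interval -0.37 to 0.32; limma adjusted p = 0.999). Day 21 saline replicate 1 had the highest Rasgrf2 and Rasgrf1 and also the highest sum of cortical glutamatergic markers, 166.8 FPKM. Such sums are weighted to Lmo3, which averaged 81.1 FPKM over the 18 libraries, beside 11.6 FPKM for Slc17a7. Leaving out 1 library moved the day 21 difference of Rasgrf2 to between -0.53 (without amphetamine replicate 1) and -0.05 (without amphetamine replicate 3), and the day 1 difference to between 0.11 and 0.39. With the cortical marker mean as a covariate, the difference over the mean of the days was 0.08 for Rasgrf2 and -0.01 for Rasgrf1, and that of Rasgrf2 on day 21 was -0.28 (limma unadjusted p = 0.652, 0.927 and 0.320).

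**Figure D2:**
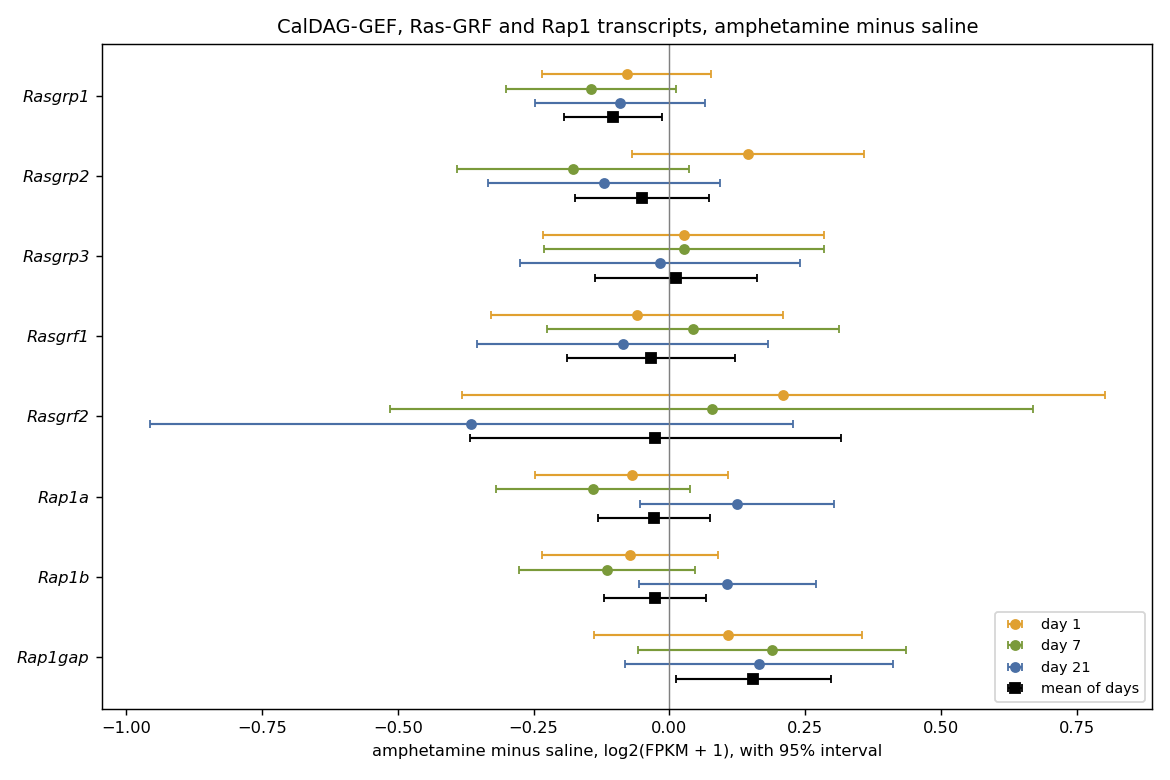
Log2 difference of each gene, amphetamine minus saline, with its 95% interval from limma, for days 1, 7 and 21 (circles) and the mean of the days (squares). The mean-of-days intervals lie apart from 0 for Rasgrp1 (-0.19 to -0.01) and Rap1gap (0.01 to 0.30) before adjustment, and Rasgrf2 has the widest intervals.

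Rap1a and Rap1b, the genes of the Rap1 GTPases, lay below saline on days 1 and 7 in their means and above it on day 21. Rap1a had 17.5, 18.1 and 17.03 FPKM in amphetamine mice on day 1, against 19.9, 17.1 and 18.5 FPKM in saline mice. On day 7 Rap1a had 17.3, 18.2 and 14.1 FPKM in amphetamine mice, against 17.01, 18.4 and 19.4 FPKM in saline mice. On day 21 Rap1a had 18.6, 20.2 and 18.03 FPKM in amphetamine mice, against 17.8, 16.6 and 17.5 FPKM in saline mice. The Rap1a groups overlapped on days 1 and 7, and all amphetamine mice were above all saline mice on day 21. Rap1b had 20.7, 23.4 and 24.3 FPKM in amphetamine mice on day 1, against 26.2, 21.9 and 24.1 FPKM in saline mice. On day 7 Rap1b had 20.7, 22.4 and 21.9 FPKM in amphetamine mice, against 22.9, 24.2 and 23.6 FPKM in saline mice. On day 21 Rap1b had 25.4, 26.7 and 23.9 FPKM in amphetamine mice, against 24.7, 21.4 and 24.3 FPKM in saline mice. All amphetamine mice were below all saline mice for Rap1b on day 7, and its groups overlapped on days 1 and 21. The log2 differences on days 1, 7 and 21 were -0.07, -0.14 and 0.12 for Rap1a and -0.07, -0.12 and 0.11 for Rap1b. Leaving out 1 library gave -0.12 to -0.02 for Rap1a on day 1 and -0.21 to -0.04 on day 7, the end near 0 without amphetamine replicate 3. It gave -0.14 to -0.007 for Rap1b on day 1, the end near 0 without amphetamine replicate 1, and 0.05 to 0.15 on day 21. Over the mean of the days both differences were -0.03, with an SE of 0.05 for Rap1a and 0.04 for Rap1b (limma adjusted p = 0.999 for each). Among the amphetamine mice Rap1b averaged 22.8, 21.7 and 25.3 FPKM on days 1, 7 and 21, with a limma unadjusted p for day of 0.0382 and an adjusted p of 0.428.

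Rap1gap, which encodes the GTPase-activating protein that switches Rap1 off, had a higher mean with amphetamine on each day. On day 1 it had 122.5, 109.3 and 139.7 FPKM in amphetamine mice, against 100.5, 124.2 and 119.3 FPKM in saline mice. On day 7 it had 142.0, 130.3 and 146.2 FPKM in amphetamine mice, against 129.4, 120.7 and 116.7 FPKM in saline mice. On day 21 it had 122.0, 110.3 and 150.2 FPKM in amphetamine mice, against 104.4, 113.9 and 120.1 FPKM in saline mice. Every amphetamine mouse was above every saline mouse on day 7, and the groups overlapped on days 1 and 21. The log2 differences were 0.11, 0.19 and 0.17, and 0.15 ± 0.07 over their mean (SE; 95% interval 0.01 to 0.30), with a limma unadjusted p of 0.0358 and an adjusted p of 0.917. It was the only one of the 8 above 0 on all 3 days, which held for 13.1% of tested genes. With the striatal projection neuron marker mean as a covariate, added after the data were seen, its difference was 0.16 (limma unadjusted p = 0.002365, adjusted p = 0.406). With the cortical marker mean as a covariate it was 0.13 (limma unadjusted p = 0.0942), and with relative depth 0.13 (limma unadjusted p = 0.123). Leaving out 1 library gave 0.02 (without saline replicate 1) to 0.19 on day 1 and 0.04 (without amphetamine replicate 3) to 0.26 on day 21. Rap1gap overlaps the antisense gene Rap1gapos, and Rasgrp2 overlaps Gm14965 on the opposite strand. Whether counting used the strand is not given in the sources used here, so reads of these overlapping genes cannot be told apart. Rap1a overlaps the sense intronic genes Gm43328, Gm43329, Gm43330 and Gm43331 on its own strand, which counting by strand would not separate.

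Counted by separation of the groups, 1 of the 8 genes did not overlap between amphetamine and saline mice on day 1, against 10.6% of tested genes. On day 7 it was 3 of 8 against 10.3%, and on day 21 it was 3 of 8 against 12.3%. With 3 mice against 3, an exact permutation test of 1 gene cannot give a p below 0.1. Whether the difference with amphetamine itself varied with day was tested as an interaction, which none of the 8 passed (0 of 8 against 0% of tested genes; smallest limma adjusted p = 0.773, at Rasgrp2). At an unadjusted p of 0.05, 0 of 8 passed that interaction test against 6.25% of tested genes. For day among saline mice 0 of 8 passed the adjusted threshold, against 0.00716% of tested genes, and 1 of 8 passed unadjusted, against 5.95%. For day among amphetamine mice 0 of 8 passed adjusted, against 0%, and 1 of 8 passed unadjusted, against 11.2%.

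Levels of the 8 genes also varied between animals of the same group. This was examined as the correlation of deviations from group means over the 18 mice, with two-sided exact permutation within groups over 46656 orders. Of 28 pairs of genes, 1 passed after adjustment by Pearson's r and 2 by Spearman's rho, and 8 and 6 had an unadjusted p under 0.05. Rap1a and Rap1gap ran in opposite directions, with Pearson's r of -0.665 (exact permutation p = 0.00159, adjusted p = 0.0444) and Spearman's rho of -0.761 (exact permutation p = 0.00163, adjusted p = 0.0336). Without the 2 mice farthest from the median of Rap1a, r was -0.789, with an exact permutation adjusted p of 0.0684. Rasgrf2 and Rap1gap had r of -0.747 (adjusted permutation p = 0.057) and rho of -0.773 (adjusted permutation p = 0.0336), and r was -0.546 without 2 mice. Rasgrp1 and Rap1a had r of -0.830 and rho of -0.688 (adjusted permutation p = 0.0894 for r and 0.167 for rho), and r was -0.683 without 2 mice. The paralogs Rasgrp1 and Rasgrp2 had r of 0.464 and rho of 0.519 (adjusted permutation p = 0.161 for r and 0.209 for rho), and r was 0.602 without 2 mice.

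**Figure D3:**
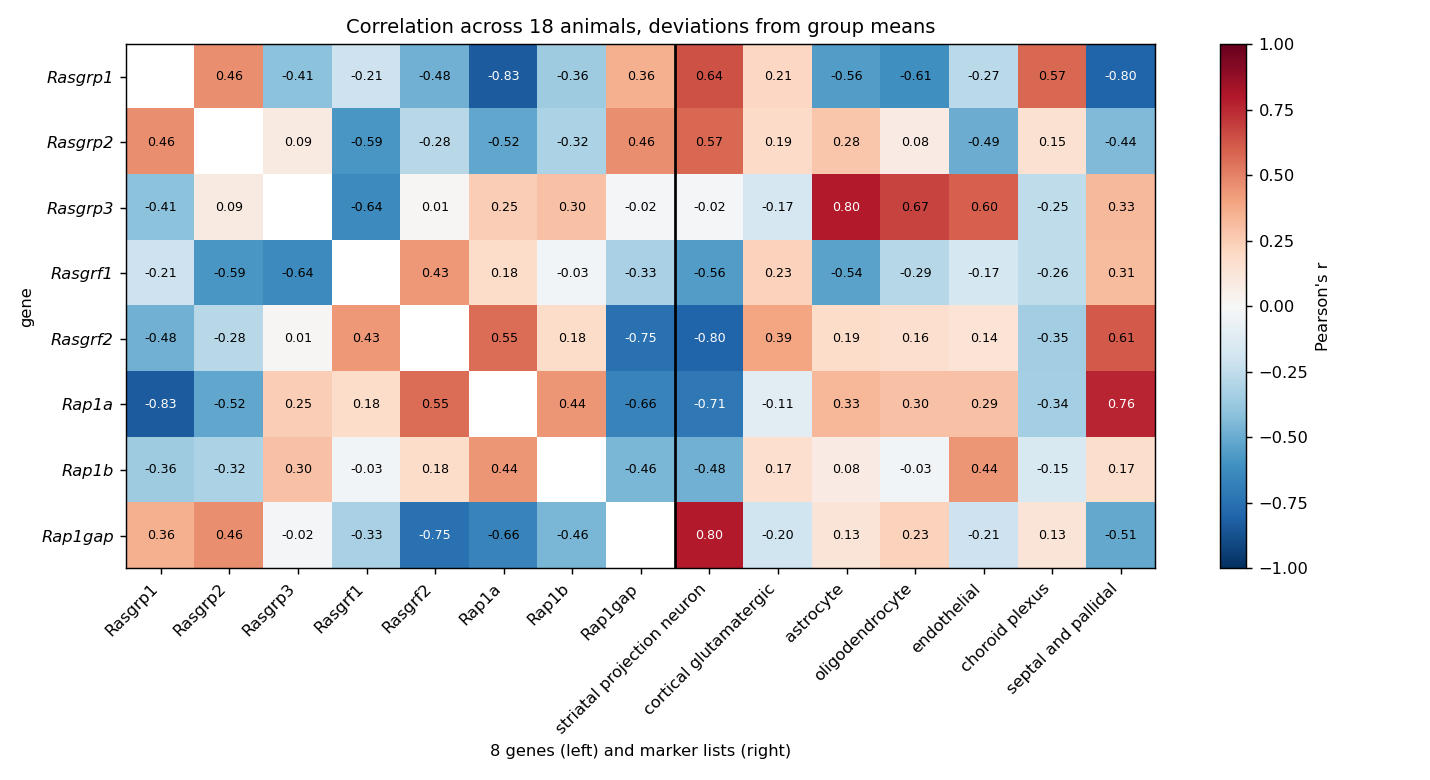
Pearson's r between the deviations of the 8 genes from their group means (left block) and between each gene and the mean of each marker list (right block), over 18 mice. Rap1gap and the projection neuron markers run together (0.80) and Rap1a and Rasgrf2 run against them (-0.71 and -0.80).

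The same deviations were set against the mean level of 7 marker lists, 56 pairs in all, to see how the 8 genes followed the makeup of the dissected tissue. None passed after adjustment (0 of 56), and 14 had an unadjusted exact permutation p under 0.05. Rap1gap ran with the projection neuron markers, with r of 0.796 and rho of 0.792 (exact permutation p = 0.00101 for r and 0.00193 for rho; adjusted p = 0.0564 and 0.0642), and r was 0.774 without the 2 farthest mice. Rasgrf2 had r of -0.803 and rho of -0.816 with the same markers (adjusted permutation p = 0.0832 and 0.0744), and r was -0.679 without 2 mice. Rap1a had r of -0.713 and rho of -0.719 with them (adjusted permutation p = 0.0832 and 0.0744), and r was -0.743 without 2 mice. Rasgrp1 had r of 0.636 with the projection neuron list and -0.800 with septal and pallidal markers (adjusted permutation p = 0.0832 for each), and Rasgrp2 had r of 0.573 with the projection neuron markers (adjusted permutation p = 0.107). Rasgrp3 had its largest r with the astrocyte markers, at 0.796 and rho of 0.829 (adjusted permutation p = 0.0832 and 0.0642). Spearman's rho was 0.645 and -0.6925 for these pairs of Rasgrp1 and 0.5005 for that of Rasgrp2 (adjusted permutation p = 0.132, 0.132 and 0.189). Without 2 mice r was 0.507, -0.726, 0.602 and 0.721 for these last 4 pairs in the order given. Differences between correlations were not tested.

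The marker lists were also compared between treatments, and 0 genes of any list passed the adjusted limma threshold. Over the mean of the days, 9 of 9 tested genes of the septal and pallidal list were higher with amphetamine (median log2 difference 0.11). So were 9 of 10 astrocyte markers (0.06) and 3 of 3 choroid plexus markers (0.32). Of all tested genes, 55.6% were higher. The septal and pallidal list, with Sst among its genes, does not mark that tissue alone. The choroid plexus list held 8 genes, of which 3 were tested. Higher markers numbered 0 of 7 tested of 12 listed for cortex (median -0.13) and 4 of 14 for projection neurons (-0.05). The cortical median was the value of Lmo3, which ran from 67.4 to 94.1 FPKM. Pdyn went against the projection neuron median, at 0.32 (limma unadjusted p = 0.000702, adjusted p = 0.265). On day 1, 11 of 11 oligodendrocyte markers were higher, against 1 of 11 on day 7 and 2 of 11 on day 21. At an unadjusted limma p of 0.05, 0 of the 11 passed on day 1. The median log2 difference of all tested genes was 0.05 on that day. Choroid plexus markers summed to 26.3 to 100.4 FPKM in amphetamine mice on day 1, against 10.4 to 19.4 FPKM in saline mice. Ttr, 1 gene of that list, ran from 0.911 to 91.1 FPKM over all libraries. Of the listed markers, Neurod1 and Emx1 (cortical) and Folr1, Kcne2, Kcnj13 and Otx2 (choroid plexus) were listed at 0 in 1 to 4 libraries. The differences of the 8 genes were fitted with cortical and projection neuron marker means as covariates; the part of the other lists was not tested.

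**Figure D4:**
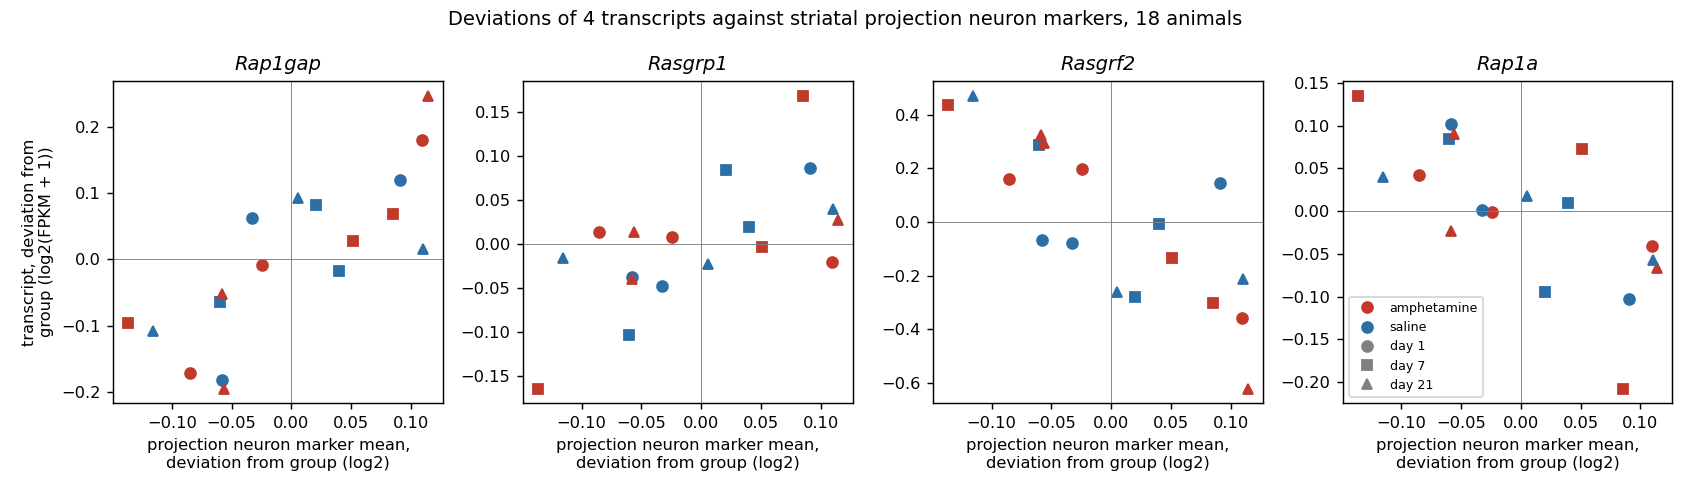
Deviation of each mouse from its group mean for 4 genes (vertical, log2(FPKM + 1)) against the deviation of the mean of 14 projection neuron markers (horizontal, log2), with colour for treatment and shape for day. Rap1gap and Rasgrp1 slope upward and Rasgrf2 and Rap1a slope downward over the 18 mice.

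For each of the 8 genes the most alike tested genes were taken by the highest Pearson's r over the 18 deviations from group means, as a description. Nearest to Rap1gap were Fbxl16 (r = 0.962), Josd1 (r = 0.935) and Dbp (r = 0.927), and nearest to Rasgrf1 were Nup50 (r = 0.937), Stxbp6 (r = 0.918) and Hap1 (r = 0.882). Nearest to Rap1a were Crim1 (r = 0.926), Lekr1 (r = 0.884) and Pcdh20 (r = 0.881), and nearest to Rap1b were Xpo1 (r = 0.917), Hist2h4 (r = 0.917) and X95399 (r = 0.895). Nearest to Rasgrp1 were Ky (r = 0.902), 9430020K01Rik (r = 0.88) and RP24-180B11.5 (r = 0.869), and nearest to Rasgrp2 were Mir212 (r = 0.903), Arhgef2 (r = 0.877) and Ncrna00085 (r = 0.842). Nearest to Rasgrf2 were Cpne7 (r = 0.917), Ptprd (r = 0.907) and Gpr123 (r = 0.901), and nearest to Rasgrp3 were Aff1 (r = 0.923), Cyp2j9 (r = 0.889) and Cdk19 (r = 0.888). These genes were picked from 13975 by their r over 18 mice, and no test is given for them. Their levels differed widely: Mir212 averaged 268 FPKM, while Ky (1.29 FPKM) and Hist2h4 (1.09 FPKM) lay near the filter of 1 FPKM.

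The rest of the pathway was covered by 5 lists of 97 genes, of which 95 were in the table and 88 were tested. In the comparisons of days 1, 7 and 21 and of their mean, 0 of 88 rose and 0 fell at the adjusted threshold, and unadjusted p was under 0.05 for 3, 4, 6 and 8 genes. These were 3.41%, 4.55%, 6.82% and 9.09% of the 88, beside 7.25%, 4.92%, 5.5% and 5.36% of all tested genes. Over the mean of the days 35 of the 88 differences were above 0 and 53 below, beside 55.6% above 0 among all tested genes. The gene with the smallest p was Rasd1, which encodes the dexamethasone-induced Ras-related protein Dexras1. Rasd1 had 3.42, 3.53 and 5.79 FPKM in amphetamine mice on day 1, against 1.51, 2.03 and 2.47 FPKM in saline mice. On day 7 Rasd1 had 1.94, 3.07 and 3.40 FPKM in amphetamine mice, against 1.17, 1.42 and 2.04 FPKM in saline mice. On day 21 Rasd1 had 2.90, 3.98 and 2.43 FPKM in amphetamine mice, against 1.91, 2.13 and 0.93 FPKM in saline mice. The groups did not overlap on days 1 and 21 and overlapped on day 7. The difference over the mean of the days was 0.67 ± 0.13 (SE; limma unadjusted p = 0.000195, adjusted p = 0.114).

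By role, 16 other exchange factors for Ras and Rap had a median difference over the mean of the days of 0.02, with Rapgef3, the gene of the cyclic AMP-activated Rap1 exchange factor Epac1, at 0.13 and Rasgef1b at -0.14. Rasgef1b had 36.8 ± 3.10 FPKM in amphetamine mice and 47.9 ± 6.48 FPKM in saline mice on day 7 (SD, n = 3 each). Its log2 differences were 0.12, -0.37 and -0.18 on days 1, 7 and 21 (limma interaction unadjusted p = 0.0288, adjusted p = 0.773). The 12 other GTPase-activating proteins had a median of -0.04, with the Rap GTPase-activating protein gene Sipa1l1 at -0.08 and the Ras GTPase-activating protein gene Rasal1 at 0.16. The 20 other Ras family GTPases had a median of -0.03, with Rasd1 above and Diras2 at -0.13 (limma adjusted p = 0.539). The 18 effectors and ERK cascade genes had a median of 0.002, with the Rac exchange factor gene Tiam1 at 0.10 and the phosphoinositide 3-kinase catalytic subunit gene Pik3cb at -0.06. The 22 diacylglycerol and calcium inputs had a median of -0.04, with the phospholipase gene Plcg1 at 0.10. The median of all tested genes was 0.01, and the 8 genes had a median of -0.03.

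**Figure D5:**
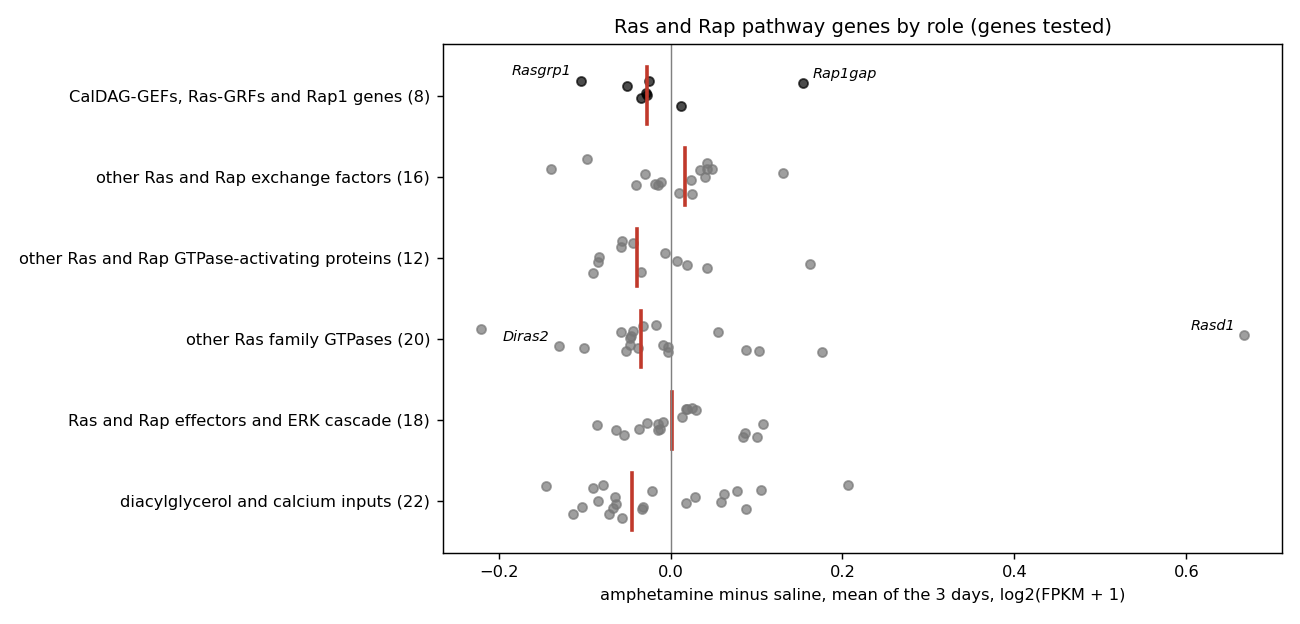
Log2 difference over the mean of the 3 days, amphetamine minus saline, for each tested gene of the pathway (points, one row per role; red bars are medians; vertical positions within a row are jittered). Rasd1 stands alone at 0.67, and Rasgrp1 and Rap1gap lie on opposite sides of 0 within the first row.

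Related names in the table were kept apart from the 8 genes. A row named Rasgrp, an older symbol of Rasgrp1 in RefSeq, ran from 0.284 to 1.98 FPKM and was not added to Rasgrp1. Rasgrp4 ran from 0.532 to 1.07 FPKM, and Rap1gap2, a further Rap1 GTPase-activating protein gene, ran from 12.3 to 17.3 FPKM.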

How the data were processed

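FPKM values per gene were deposited by the authors as 1 table for the 18 libraries; Bowtie is named among the tools and mm9 as the build, per the submitters' processing notes. The sources used here do not give the quantifier, annotation, strand handling or read totals. All 18 columns were matched to samples by the labels, and no column of another sample was present (0). Values were converted here to log2(FPKM + 1), and the 13975 genes with a mean of at least 1 FPKM were tested with limma 3.58.1 in R 4.3.3 (moderated, with trend), in 1 fit with 1 mean per group. Two-sided p-values were adjusted over all tested genes (Benjamini-Hochberg), and calls used an adjusted p under 0.05. A log2 difference of FPKM + 1 understates the change of low genes. Each library is 1 mouse, so the spread is between animals. Correlations used Python 3.11.15 with numpy 2.4.6 and pandas 2.3.3, and figures matplotlib 3.10.9. The fits and correlations were tested on simulated data. Sequences are from RefSeq (GRCm38.p6) and GENCODE M21. The 8 genes, the lists and the tests were chosen with earlier results of these data known. Pathway genes named in the text are the 2 with the smallest p over the mean of the days in each list, and any past the threshold; 1 of these is not reported here. Alternatives covered pseudocount, filter, scaling, weights, covariates, replicate number as a block, single days and leaving out each library.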

Additional observations from a re-analysis of the deposited data

How the results depend on the processing

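The count of the 8 genes past the adjusted threshold stayed at 0 in every comparison under each of the 29 alternatives (28 where single days do not apply), and the smallest adjusted p of any of them was 0.39 (limma, Rasgrp1 over the mean of the days, array weights). Of 912 differences recomputed, 865 kept their direction and 47 turned, and the cause was not tested. Many of the 912 could not turn, so the share that kept direction does not measure stability. With 1 mean per group, leaving out a library cannot move the difference of another day. The filters, the replicate block and the fits of single days leave each log2 difference as it is. For Rasgrp3 on day 1 the turned differences were -0.0156 with median-of-ratios scaling, -0.0205 with quantile normalization and -0.116 with array weights. They were -0.0036 with the cortical marker covariate and -0.0192 with relative depth. For Rasgrp3 on day 7 they were -0.00453 with quantile normalization, -0.059 with weights and -0.0182 with depth, and on day 21 it was 0.00312 with quantile normalization. For Rasgrp3 over the mean of the days they were -0.00731 with quantile normalization, -0.0700 with weights, -0.00566 with the cortical covariate and -0.0404 with depth. Array weights gave 0.034 for Rasgrf1 on day 1, 0.0252 for Rasgrf1 over the mean and 0.0783 for Rasgrf2 over the mean, for which the cortical covariate gave 0.0766. The projection neuron covariate gave -0.0378 for Rasgrf2 on day 7, and depth gave 0.000578 for Rap1b over the mean.

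Leaving out each of the 18 libraries in turn gave -0.0321 to 0.123 for Rasgrp3 on day 1, -0.0727 to 0.132 on day 7, -0.11 to 0.0334 on day 21 and -0.0211 to 0.047 over the mean. It gave -0.177 to 0.0395, -0.0699 to 0.157, -0.149 to 0.0282 and -0.0732 to 0.00408 for Rasgrf1 on days 1, 7, 21 and over the mean. It gave -0.14 to 0.229 for Rasgrf2 on day 7, -0.0982 to 0.0779 for Rasgrf2 over the mean and -0.0509 to 0.00615 for Rap1a over the mean. Rasgrp1 was -0.103 to -0.0358 on day 1, -0.229 (without amphetamine replicate 3) to -0.0619 (without amphetamine replicate 2) on day 7 and -0.104 to -0.0709 on day 21. Rasgrp1 over the mean stayed between -0.133 and -0.0771, and Rap1gap between 0.113 and 0.187. An unadjusted p under 0.05 was kept in 22 of 28 alternatives for Rasgrp1 and 17 of 28 for Rap1gap. With relative depth as a covariate, chosen after the data were seen, Rap1gap was 0.126 (limma unadjusted p = 0.123). A filter of 5 FPKM removed Rasgrp3 and Rasgrf2, which have no value there.

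Correlations past the adjusted threshold by Pearson's r numbered 1 between genes (2 by Spearman's rho), 2 under median-of-ratios scaling and 0 without the 2 farthest mice. Between genes and marker lists they numbered 0, 2 under median-of-ratios scaling and 1 under quantile normalization. With the replicate number as a block, 0 of the 8 genes passed in any comparison. Each group holds each replicate number, so the block can change a p-value but not a log2 difference. Over the mean of the days Rasgrp1 thus stayed at -0.105 and Rap1gap at 0.154 by design (limma unadjusted p = 0.0386 and 0.0235). Over all genes the block gave 8 calls over the mean of the days, against 17 without it. Same-numbered mice had correlations of deviations of -0.0853 to 0.145 (9 pairs), beside -0.139 to 0.131 for other pairs (18 pairs), so the numbers were not taken to pair animals. Over all alternatives the calls among all genes ran from 0 to 8 on day 1 (1 as reported), 0 to 10 on day 7 (3), 0 to 6 on day 21 (0) and 8 to 28 over the mean (17). Rasgrp3 and Rasgrf2 had the lowest levels, and the read counts behind them are unknown.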
